A study of Mus musculus with 36 samples.

Results

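The 10 genes described here guard cells against oxidants and make or use glutathione: the transcription factor gene Nfe2l2, the cystine carrier gene Slc7a11, the glutamate-cysteine ligase genes Gclc and Gclm, the thiol reductase genes Txnrd1 and Srxn1, the glutathione enzyme genes Gpx3 and Gsta4, and the inducible enzyme genes Hmox1 and Nqo1. They were taken by Ensembl identifier, as 10 of the 52505 genes of the deposited expression table, and none was dropped for its values. The choice of these genes was made with earlier results of these data known. The cells were 3T3-L1, a mouse fibroblast line that can be turned into fat cells. Libraries of total RNA were made in 4 groups of n = 3: cells labelled Zfp217-/- (KO) at day 2, wild-type cells (WT) at day 2, KO cells at day 0 and WT cells at day 0. The days count from the start of an adipogenic cocktail of dexamethasone, isobutyl-methylxanthine, insulin and indometacin, and the labels give all groups the same serum medium. They list no untreated cells at day 2, so the cocktail and the time in culture cannot be told apart. No label says whether the KO line is a single clone, nor that replicates were grown apart. P-values therefore reflect the scatter among these libraries alone, which may be technical.

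Nfe2l2 encodes Nrf2, a transcription factor that the adaptor protein Keap1 hands to a ubiquitin ligase for destruction. Oxidants and electrophiles modify Keap1, and Nrf2 then enters the nucleus, pairs with a small Maf protein and binds antioxidant response elements, while Bach1 competes for the same elements. Its known targets include the genes that import cystine, make glutathione, reduce thioredoxin and peroxiredoxins, break down haem and reduce quinones.

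Levels are in FPKM, fragments scaled to gene length and to sequencing depth, so genes can be set side by side. The recovered depth was 18073258 to 23114994 reads per library, and 9 of the 10 genes had between 142 and 4241 reads in each library. Gpx3 had 1 to 17. Zfp217 itself averaged 22.6 ± 0.858 FPKM in KO cells and 15.1 ± 0.369 FPKM in WT cells at day 2, and 26.0 ± 0.883 FPKM in KO cells and 22.0 ± 0.279 FPKM in WT cells at day 0 (SD, n = 3 each). Its message was therefore not lower in the libraries labelled KO, and every direction given here as KO against WT rests on the label. The sources used here do not say where the gene was edited. In WT day 0, replicate 3 stood apart. Its mt-Rnr1 stood at 264 FPKM against 7.01 and 5.87 FPKM in the other WT day 0 libraries. Its Hsp90aa1 stood at 886 FPKM against 27.2 and 28.5 FPKM. The KO day 0 libraries were high too, with mt-Rnr1 at 395, 379 and 396 FPKM and Hsp90aa1 at 178, 174 and 178 FPKM. At day 2 no library passed 19.9 FPKM of mt-Rnr1 or 17.7 FPKM of Hsp90aa1. At day 0 this trait thus ran with genotype in all libraries but WT replicate 3. Leaving that library out does not remove it, and its part in the results was not tested. Without WT day 0 replicate 3 the numbers of member genes that passed were again 7 at day 0 between genotypes, 9 with day in WT and 7 for the interaction.

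The summed FPKM of 6 fat cell markers (Fabp4, Plin1, Adipoq, Cd36, Lpl, Cidec) was 329 to 343 in KO libraries and 8056 to 8238 in WT libraries at day 2, and 190 to 201 in KO libraries and 56.1 to 60.4 in WT libraries at day 0. The sum of 6 preadipocyte markers (Pdgfra, Dlk1, Thy1, Cd34, Ly6a, Col1a1) was 2780 to 2849 in KO libraries and 299 to 306 in WT libraries at day 2, and 11185 to 11720 in KO libraries and 4513 to 4692 in WT libraries at day 0. Single genes carried some of these sums. At day 0 the fat cell sum was nearly all Lpl (190.4 FPKM in KO cells and 55.9 FPKM in WT cells on average), and the preadipocyte sum was mostly Col1a1 (9746 FPKM in KO cells and 3536 FPKM in WT cells), while Cd34 ran the other way (0.280 FPKM in KO cells and 3.94 FPKM in WT cells). The sums moved with genotype and with day, as did the genes below, and their part in the results was not tested. Macrophage markers summed to 7.17 to 9.03 FPKM in KO libraries and 5.06 to 6.67 FPKM in WT libraries at day 2. At day 0 they summed to 16.4 to 16.8 FPKM in KO libraries and 3.01 to 4.45 FPKM in WT libraries. Lyz2 made up most of the KO day 0 sum (14.8 FPKM on average) and was lower in every other group. Cd68 averaged 6.09 FPKM in KO cells and 5.98 FPKM in WT cells at day 2. Adgre1 was at 0 in 3 groups and at 0.0110 FPKM on average in KO day 2. The part of these markers in the results was not tested. Markers of endothelial, epithelial, muscle, erythroid and liver cells summed to at most 1.33 FPKM in any library. In bulk RNA, fewer cells of a type and less RNA per cell cannot be told apart.

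The member genes did not move as a block. At day 2, Gclc was 2.17-fold and Nqo1 1.96-fold higher in KO cells, while Slc7a11 was 2.54-fold, Gclm 1.58-fold, Txnrd1 1.30-fold and Srxn1 1.19-fold lower. At day 0 all 6 of those genes were lower in KO cells, by between 1.47-fold (Gclm) and 2.50-fold (Gclc), and Hmox1 was higher on both days. From day 0 to day 2 Gclc rose 4.84-fold in KO cells and Nqo1 fell 5.42-fold in WT cells, and the change of each differed between genotypes. Folds are ratios of mean FPKM, and log2 changes are of FPKM + 1 with standard error (SE), tested with limma across 12961 genes and adjusted by the Benjamini-Hochberg method, with a threshold of 0.05.

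**Figure D1:**
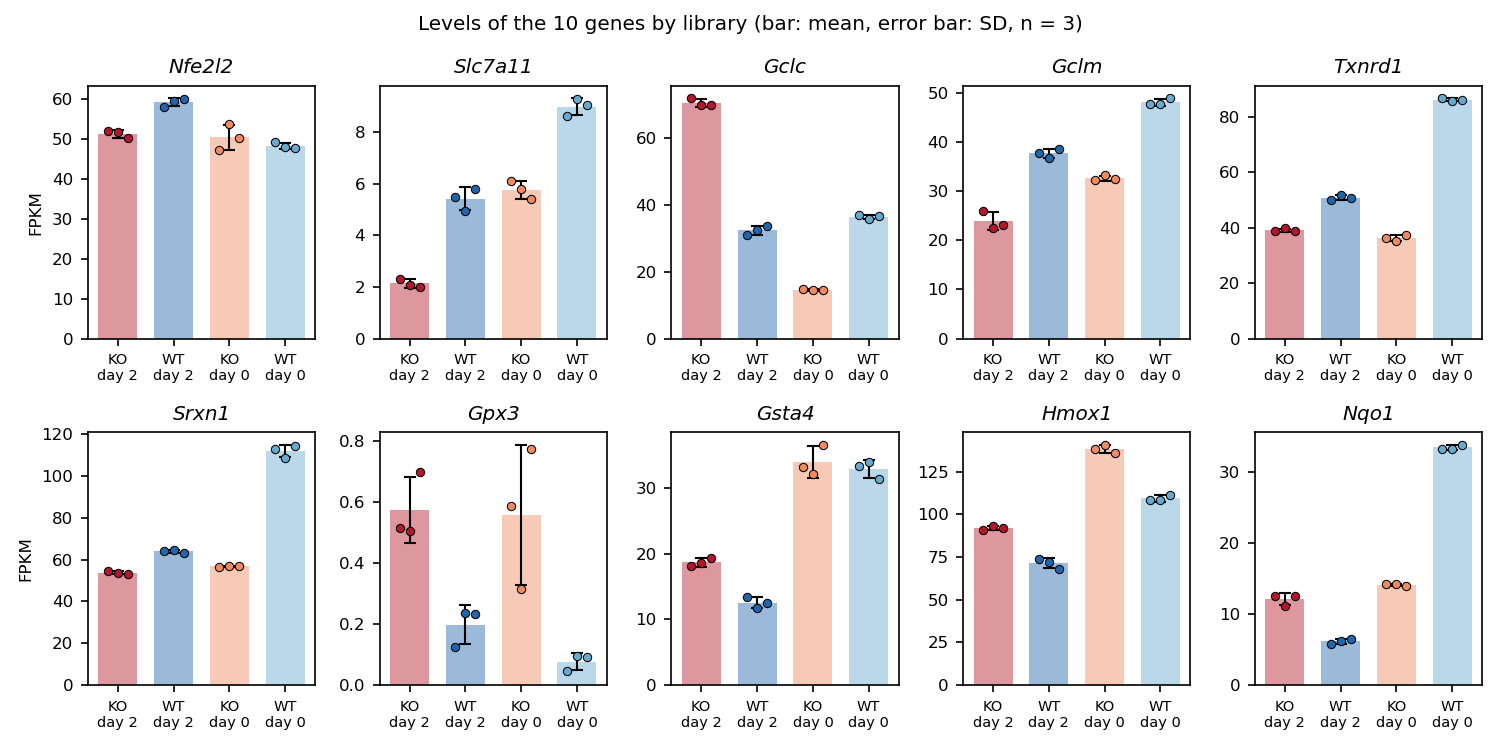
Level of each of the 10 genes in FPKM, from 0 on its own axis, in KO and WT cells at day 2 and at day 0. Points are libraries, bars are means and error bars are SD (n = 3); Gclc is highest in KO day 2 and lowest in KO day 0, and Nqo1, Txnrd1 and Srxn1 are highest in WT day 0.

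Because most genes of the table differed between the groups, the numbers that passed say little about these genes in particular. Between KO and WT at day 2, all 9 tested member genes passed, where 81.4% of all tested genes did. Of the 9, 4 were higher in KO (40.8% of all genes were) and 5 lower (40.6%). Between KO and WT at day 0, 7 of 9 passed, against 82.4% of all genes, with 1 higher in KO (38.3% of all genes) and 6 lower (44.2%). With day, 8 of 9 passed in KO cells, against 72.7% of all genes, with 2 higher at day 2 (33.9%) and 6 lower (38.8%). In WT cells 9 of 9 passed, against 80.7%, with 1 higher at day 2 (34.2%) and 8 lower (46.5%). The change with day differed between genotypes for 7 of 9, against 73.8% of all genes, with a more positive change in KO for 5 (40.8%) and a more negative one for 2 (33.0%). Changes that also reached 2-fold on the log2 scale were found in 2 of the 9 between genotypes at day 2 and in 3 at day 0, where 24.3% and 22.3% of all genes did so. They were found in 2 with day in KO cells, in 2 with day in WT cells and in 2 for the interaction, against 12.5%, 24.3% and 21.5% of all genes. The median log2 difference of the 9 genes was -0.20 between genotypes at day 2 and -0.56 at day 0, beside 0.00 and -0.06 over all genes. The median log2 change with day was -0.21 in KO cells and -0.64 in WT cells, beside -0.03 and -0.11 over all genes. Gpx3 fell under the minimum mean of 1 FPKM and is described on its own.

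**Figure D2:**
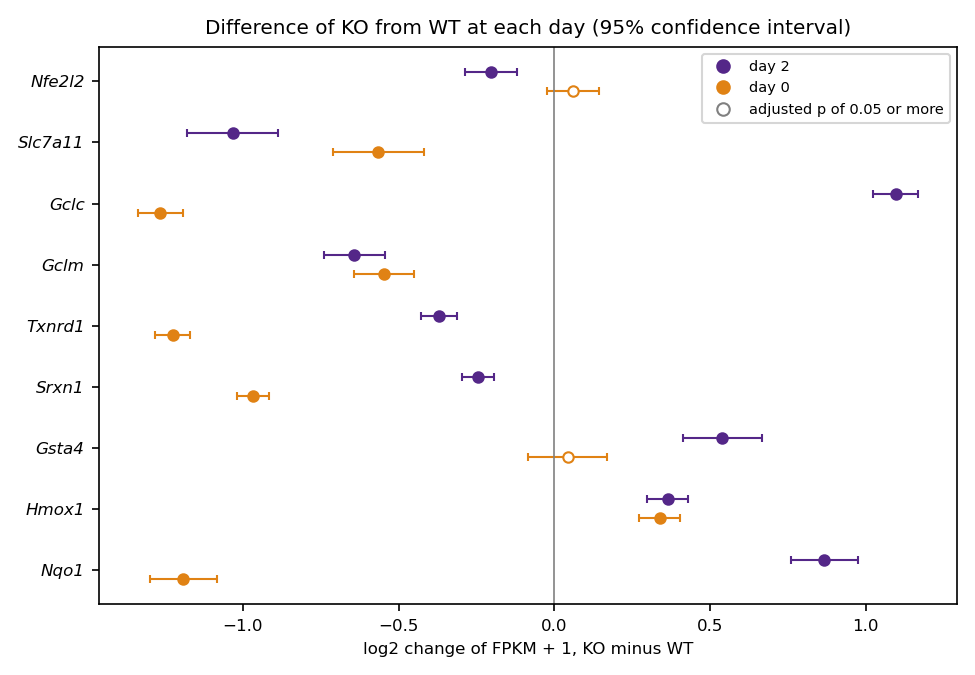
Log2 difference of FPKM + 1, KO minus WT, for the 9 tested genes at day 2 and at day 0. Points are limma estimates, bars are 95% confidence intervals and open points had an adjusted p of 0.05 or more; Gclc and Nqo1 lie above 0 at day 2 and below 0 at day 0.

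Nfe2l2, on chromosome 2 (chr2:75675513-75704663, RefSeq GRCm38.p6), varied least of the 9 tested genes, with a root mean square of 0.12 about its mean log2 level over the 12 libraries. Its level was 51.9, 51.7 and 50.1 FPKM in KO day 2 and 57.9, 59.5 and 59.9 FPKM in WT day 2, and 47.3, 53.6 and 50.2 FPKM in KO day 0 and 49.1, 47.8 and 47.6 FPKM in WT day 0. The WT day 2 libraries lay above all others, and KO day 0 overlapped both KO day 2 and WT day 0. At day 2 the level was lower in KO cells (log2 change -0.20, SE 0.0385, adjusted p = 0.000396, limma), a call that was lost with quantile normalization (-0.08, adjusted p = 0.0669). At day 0 the difference did not pass (0.06, 95% interval -0.02 to 0.14, adjusted p = 0.169), but it did pass, higher in KO cells, with TPM scaling (0.16, adjusted p = 0.00353), with quantile normalization (0.19, adjusted p = 0.000534) and without KO day 0 replicate 1 (0.10, adjusted p = 0.0142). With day it had a change of 0.03 in KO cells (95% interval -0.06 to 0.11, adjusted p = 0.55) and rose in WT cells (0.29, adjusted p = 2.08e-05), and the responses differed (-0.26, adjusted p = 0.000952). This is the message, and Nrf2 is known to be set largely by the stability of its protein, which was not measured.

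Keap1 restrains Nrf2, and Bach1 competes with it. Keap1 averaged 21.6 ± 0.431 FPKM in KO cells and 25.3 ± 0.815 FPKM in WT cells at day 2, and 29.2 ± 0.554 FPKM in KO cells and 22.3 ± 0.310 FPKM in WT cells at day 0 (SD, n = 3 each). In KO cells it was thus lower at day 2 (-0.22, adjusted p = 2.98e-05) but higher before the cocktail, at day 0 (0.37, adjusted p = 2.37e-07). Bach1 was higher in KO cells at day 2 (19.9 ± 0.977 against 17.3 ± 0.798 FPKM, log2 change 0.20, adjusted p = 0.00166) and did not pass at day 0 (0.01, 95% interval -0.09 to 0.11, adjusted p = 0.824). Of the 13 tested genes on the list of Nrf2 regulators and partners, 6 were higher and 5 lower in KO at day 2, and 5 were higher and 5 lower at day 0, with median log2 differences of -0.02 and 0.09. Over all tested genes, 40.8% were higher and 40.6% lower at day 2, and 38.3% higher and 44.2% lower at day 0. The small Maf gene Mafg stood at 143 ± 1.37 FPKM in KO cells and 82.8 ± 1.08 FPKM in WT cells at day 2 (0.79, adjusted p = 1.68e-11). It was higher in KO cells at day 0 too (108 ± 2.81 against 59.2 ± 0.990 FPKM, 0.855, adjusted p = 9.63e-12, limma). Its relative Maff stood at 2.77 ± 0.299 FPKM in KO cells and 9.98 ± 0.786 FPKM in WT cells at day 0 (-1.54, adjusted p = 1.14e-08). Maff was lower in KO cells at day 2 too (1.16 ± 0.230 against 1.86 ± 0.147 FPKM, -0.41, adjusted p = 0.00135, limma).

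Slc7a11 (chr3:50364936-50499087) encodes the light chain of the exchanger that brings cystine into the cell, where it is reduced to cysteine for glutathione. It was the least abundant of the 9 tested genes in every group. Its level was 2.32, 2.08 and 2.00 FPKM in KO day 2 and 5.49, 4.94 and 5.81 FPKM in WT day 2, and 6.08, 5.77 and 5.40 FPKM in KO day 0 and 8.62, 9.28 and 9.05 FPKM in WT day 0. The KO libraries lay below the WT libraries on both days, and WT day 2 overlapped KO day 0. It was lower in KO cells at day 2 (-1.03, SE 0.066, adjusted p = 2.17e-08) and at day 0 (-0.56, SE 0.066, adjusted p = 6.54e-06). With day it fell in KO cells (-1.11, adjusted p = 2.04e-08) and in WT cells (-0.64, adjusted p = 2.06e-06), by more in KO (interaction -0.47, adjusted p = 0.000728).

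Gclc (chr9:77754535-77794489) encodes the catalytic subunit of glutamate-cysteine ligase, the rate-limiting enzyme of glutathione synthesis. Its level was 71.9, 69.7 and 69.7 FPKM in KO day 2 and 31.1, 32.4 and 33.8 FPKM in WT day 2, and 15.0, 14.4 and 14.4 FPKM in KO day 0 and 36.9, 35.7 and 36.7 FPKM in WT day 0. No groups overlapped: KO cells were the lowest at day 0 and the highest at day 2. The log2 difference of KO from WT was 1.10 at day 2 (SE 0.0325, adjusted p = 1.66e-11) and -1.26 at day 0 (SE 0.0325, adjusted p = 5.7e-12). With day Gclc rose in KO cells (2.20, adjusted p = 6.98e-14) and fell slightly in WT cells (-0.16, adjusted p = 0.000605), and the responses differed by 2.36 (adjusted p = 1.28e-12). The fall in WT did not pass with median-of-ratios scaling (-0.07, adjusted p = 0.0521).

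Gclm (chr3:122245487-122267215) encodes the modifier subunit, which raises the ligase's affinity for its substrate and eases feedback by glutathione. Its level was 26.0, 22.6 and 23.1 FPKM in KO day 2 and 37.7, 36.9 and 38.7 FPKM in WT day 2, and 32.2, 33.3 and 32.5 FPKM in KO day 0 and 47.8, 47.7 and 49.0 FPKM in WT day 0. The groups kept apart, with KO below WT on both days and day 2 below day 0 in both genotypes. KO cells were lower at day 2 (-0.64, SE 0.044, adjusted p = 4.22e-08) and at day 0 (-0.55, SE 0.044, adjusted p = 2.03e-07). The falls with day were -0.44 in KO cells (adjusted p = 2.5e-06) and -0.34 in WT cells (adjusted p = 1.52e-05). Their difference did not pass (-0.10, 95% interval -0.23 to 0.04, adjusted p = 0.188), though it did with quantile normalization (-0.14, adjusted p = 0.0442) and without KO day 2 replicate 1 (-0.15, adjusted p = 0.00538).

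The subunit messages therefore parted in KO cells. The ratio of Gclc to Gclm FPKM was 2.77, 3.08 and 3.02 in KO day 2 and 0.824, 0.880 and 0.872 in WT day 2, and 0.464, 0.432 and 0.443 in KO day 0 and 0.772, 0.747 and 0.748 in WT day 0. KO cells lay well above WT cells at day 2 and below them at day 0, while WT cells lay under 1 on both days, higher at day 2 than at day 0 without overlap. The ratio is of messages scaled to gene length and says nothing of the subunits' protein. Scaling of the libraries cancels in it.

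**Figure D3:**
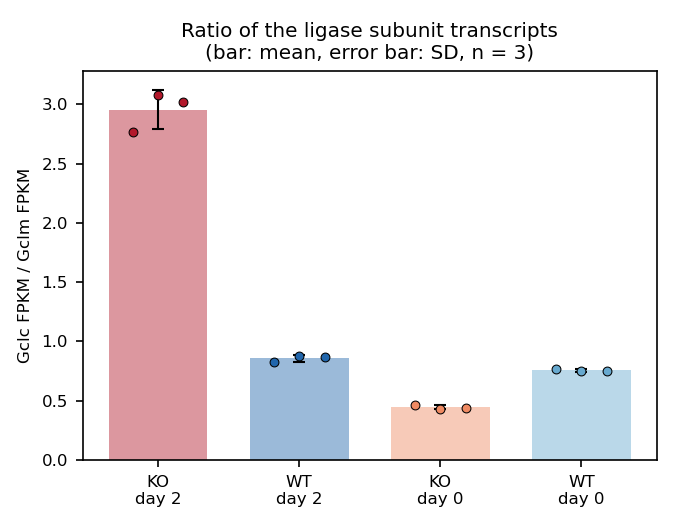
Ratio of Gclc FPKM to Gclm FPKM in each library of KO and WT cells at day 2 and at day 0. Points are libraries, bars are means and error bars are SD (n = 3); the mean is 2.96 in KO day 2, 0.859 in WT day 2, 0.446 in KO day 0 and 0.756 in WT day 0.

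Txnrd1 and Srxn1 serve thiol reduction outside glutathione. Txnrd1 (chr10:82833951-82897724) encodes the cytosolic thioredoxin reductase, a selenoprotein that uses NADPH, and Srxn1 (chr2:152105524-152111376) encodes sulfiredoxin, which repairs overoxidised peroxiredoxins. They were each other's nearest neighbour among the 9 tested member genes, with a root mean square difference of 0.12 between their centred log2 levels over the 12 libraries. As the nearest pair in pattern among the members, though 43 other genes lay nearer to Txnrd1 and their small changes with day in KO cells had opposite signs, they were chosen for a look at promoters. A 300-base window of each is given here from RefSeq on GRCm38.p6, plus strand. It runs from 250 bases before a transcript start to 50 bases after it. For Srxn1 that start is the start of the gene's span given above. For Txnrd1 the window at the start of the span is window 1 (chr10:82833701-82834000). The Txnrd1 window shown, window 2, lies at another start inside the gene. Capitals mark matches on either strand to TGACNNNGC, the core of the antioxidant response element, or to TGAGNNNGC, its form with G. The second form was chosen after the windows had been seen.
Srxn1 window, chr2:152105274-152105573: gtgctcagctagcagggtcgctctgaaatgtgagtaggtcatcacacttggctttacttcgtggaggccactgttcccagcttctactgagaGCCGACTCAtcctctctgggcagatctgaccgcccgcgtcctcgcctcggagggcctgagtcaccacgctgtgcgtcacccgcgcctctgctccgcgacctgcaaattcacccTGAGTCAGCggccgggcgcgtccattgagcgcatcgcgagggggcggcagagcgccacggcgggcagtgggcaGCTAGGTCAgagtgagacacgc
Txnrd1 window 2 of 3, chr10:82858956-82859255: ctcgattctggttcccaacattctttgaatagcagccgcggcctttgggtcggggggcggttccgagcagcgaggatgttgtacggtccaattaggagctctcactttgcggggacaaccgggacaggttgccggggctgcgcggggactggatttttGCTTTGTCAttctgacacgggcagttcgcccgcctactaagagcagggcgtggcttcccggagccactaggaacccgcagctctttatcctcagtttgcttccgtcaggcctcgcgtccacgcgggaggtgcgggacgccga

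The Srxn1 window held 1 match to TGACNNNGC, at bases 29 to 37 counted from the start as 1, and 2 matches to TGAGNNNGC, at bases -158 to -150 and -45 to -37. The last of these reads TGAGTCAGC and overlaps 1 of the window's 2 matches to TGANTCA, the AP-1 motif. The Txnrd1 window shown held 1 match to TGACNNNGC, on the minus strand, at bases -92 to -84 from its own start inside the gene. The other 2 Txnrd1 windows, including that at the start of the gene's span, held none of the 3 motifs. RefSeq windows were matched for 7 of the 10 genes (9 windows). Among the others, Nfe2l2 and Gclm held 1 match each to TGACNNNGC and Slc7a11 held 1 to TGAGNNNGC. The Slc7a11 window (chr3:50443564-50443863) lies well inside the gene's span given above. The Gpx3 and Nqo1 windows held none of the 3 motifs. Of all 32851 windows in the RefSeq table, 12.4% held TGACNNNGC, 17.6% held TGAGNNNGC and 7.81% held TGANTCA. A match describes letters in a window and is no evidence of binding.

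Txnrd1 was at 38.7, 39.7 and 38.9 FPKM in KO day 2 and 49.9, 52.0 and 50.8 FPKM in WT day 2, and at 36.4, 35.2 and 37.3 FPKM in KO day 0 and 86.8, 85.6 and 86.2 FPKM in WT day 0. WT day 0 stood far above the other 3 groups, which did not overlap either. The log2 difference of KO from WT was -0.37 at day 2 (SE 0.026, adjusted p = 5.45e-08) and -1.23 at day 0 (SE 0.026, adjusted p = 1.1e-12). With day Txnrd1 rose slightly in KO cells (0.11, adjusted p = 0.00313) and fell in WT cells (-0.75, adjusted p = 6.29e-11), and the responses differed (0.86, adjusted p = 1e-09).

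Srxn1 was likewise highest in WT day 0, then in WT day 2, but its KO groups stood in the opposite order to those of Txnrd1. Its level was 54.3, 53.8 and 52.9 FPKM in KO day 2 and 64.0, 64.5 and 62.9 FPKM in WT day 2, and 56.5, 56.9 and 56.7 FPKM in KO day 0 and 113, 108 and 114 FPKM in WT day 0. Again WT day 0 was high and the KO groups were close to each other without overlap. KO cells were lower at day 2 (-0.25, SE 0.0235, adjusted p = 9.66e-07) and at day 0 (-0.97, SE 0.0235, adjusted p = 3.43e-12). With day it fell slightly in KO cells (-0.08, adjusted p = 0.0102), a fall that did not pass with median-of-ratios scaling (-0.02, adjusted p = 0.488), and it fell in WT cells (-0.80, adjusted p = 1.28e-11). The responses differed by 0.72 (adjusted p = 1.84e-09).

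Gsta4 and Gpx3 use glutathione. Gsta4 (chr9:78191966-78209349) encodes the glutathione transferase that conjugates lipid aldehydes such as hydroxynonenal. Its level was 18.2, 18.6 and 19.4 FPKM in KO day 2 and 13.5, 11.7 and 12.6 FPKM in WT day 2, and 33.3, 32.1 and 36.7 FPKM in KO day 0 and 33.5, 34.0 and 31.5 FPKM in WT day 0. The genotypes overlapped at day 0 and were apart at day 2, when both were lower. KO cells were higher at day 2 (0.54, SE 0.0576, adjusted p = 2.86e-06). At day 0 the difference was 0.04 (95% interval -0.08 to 0.17, adjusted p = 0.507), and it passed with TPM scaling (0.15, adjusted p = 0.0282) and with quantile normalization (0.16, adjusted p = 0.0264). The gene fell by 0.83 in KO cells (adjusted p = 8.74e-08) and by 1.32 in WT cells (adjusted p = 5.36e-10), and the responses differed (0.50, adjusted p = 0.000162).

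Gpx3 (chr11:54902854-54910387) encodes a secreted selenium-dependent glutathione peroxidase that mature fat tissue is known to make. It was barely detected: 0.515, 0.505 and 0.697 FPKM in KO day 2 and 0.125, 0.235 and 0.234 FPKM in WT day 2, and 0.586, 0.313 and 0.773 FPKM in KO day 0 and 0.0448, 0.0938 and 0.0906 FPKM in WT day 0. The KO libraries lay above the WT libraries on both days, with 37 reads in all in KO and 13 in WT at day 2, and 35 in KO and 5 in WT at day 0. Fitted without the minimum level, the log2 difference of KO from WT was 0.39 at day 2 (SE 0.0984, adjusted p = 0.00763) and 0.52 at day 0 (SE 0.0984, adjusted p = 0.00112), values that a pseudocount of 1 FPKM compresses. Neither change with day passed (0.02 in KO, adjusted p = 0.944, and 0.15 in WT, adjusted p = 0.28).

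Hmox1 (chr8:75093618-75100593) encodes haem oxygenase 1, the stress-induced enzyme that opens the haem ring and a classic gene repressed by Bach1. It was the most abundant of the 10 genes in 3 of the 4 groups, and in WT day 0 its libraries overlapped those of Srxn1. Its level was 91.1, 93.0 and 92.1 FPKM in KO day 2 and 74.0, 72.1 and 68.0 FPKM in WT day 2, and 139, 141 and 136 FPKM in KO day 0 and 108, 108 and 111 FPKM in WT day 0. KO libraries lay above WT libraries on both days, and day 2 lay below day 0 in both genotypes. KO cells were higher by 0.36 at day 2 (SE 0.0296, adjusted p = 2.14e-07) and by 0.34 at day 0 (SE 0.0296, adjusted p = 4.37e-07). The fall with day was -0.58 in KO cells (adjusted p = 4.46e-09) and -0.61 in WT cells (adjusted p = 1.52e-09), and their difference was 0.03 (95% interval -0.07 to 0.12, adjusted p = 0.6), with a sign that changed between settings.

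Nqo1 (chr8:107388225-107403205) encodes the quinone reductase often read as a reporter of Nrf2 activity. Its level was 12.6, 11.2 and 12.6 FPKM in KO day 2 and 5.82, 6.17 and 6.55 FPKM in WT day 2, and 14.2, 14.2 and 13.9 FPKM in KO day 0 and 33.3, 33.3 and 33.9 FPKM in WT day 0. WT cells thus held both the highest and the lowest level, and the KO groups lay between them. The log2 difference of KO from WT was 0.87 at day 2 (SE 0.0491, adjusted p = 6.77e-09) and -1.19 at day 0 (SE 0.0491, adjusted p = 3.72e-10). The gene fell by 0.21 in KO cells (adjusted p = 0.00241) and by 2.27 in WT cells (adjusted p = 7.78e-13), and the responses differed by 2.06 (adjusted p = 1.12e-10).

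Hmox1 and Nqo1 lie on chromosome 8, whose 675 tested genes had a median log2 difference of KO from WT exceeding the median of the whole table by 0.40 at day 2 and by 0.42 at day 0. The differences of Hmox1 were close to that shift in size, and that of Nqo1 at day 0 ran the other way. Chromosome 2, which carries Nfe2l2 and Srxn1, lay under the median of the whole table by a log2 difference of -0.22 at day 2 and -0.16 at day 0. The differences of Nfe2l2 (-0.20) and Srxn1 (-0.25) at day 2 were close to that shift. Those at day 0 (0.06 and -0.97) were not. The shifts of the chromosomes with the other members lay between -0.07 and 0.18. The part of these shifts in the results was not tested.

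**Figure D4:**
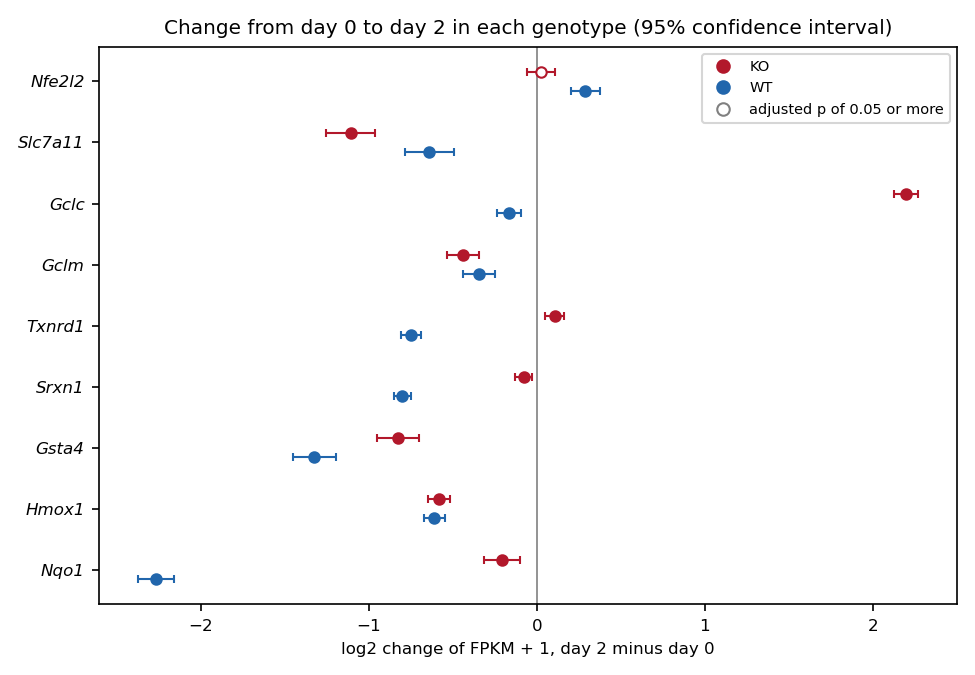
Log2 change of FPKM + 1 between the days, day 2 minus day 0, for the 9 tested genes in KO and in WT cells. Points are limma estimates, bars are 95% confidence intervals and the open point had an adjusted p of 0.05 or more; Gclc moves up by 2.20 in KO and Nqo1 down by 2.27 in WT.

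The order of levels among the 10 genes also differed between groups. In KO day 2 Hmox1 led, followed by Gclc, Srxn1, Nfe2l2 and Txnrd1, with no overlap between neighbours. In WT day 2 the order was Hmox1, Srxn1, Nfe2l2, Txnrd1, Gclm and Gclc, again with no overlap. In KO day 0 Hmox1 was followed by Srxn1 and Nfe2l2, while Txnrd1, Gsta4 and Gclm overlapped in turn. In WT day 0 Srxn1 and Hmox1 overlapped, followed by Txnrd1, then by Gclm and Nfe2l2, which overlapped.

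The wider set of antioxidant genes was taken as 10 lists, with 12 genes standing in several lists. The medians given for each list are of log2 differences of KO from WT at day 2 and at day 0, for which the median over all tested genes was 0.00 and -0.06. Of all tested genes, 40.8% were higher and 40.6% lower in KO at day 2, and 38.3% higher and 44.2% lower at day 0. The counts of each list are to be read beside these shares, and counts near them say little about a list. Among 20 other known Nrf2 targets, 8 were higher and 11 lower in KO at day 2, and 7 were higher and 11 lower at day 0, with medians of -0.36 and -0.41. The epoxide hydrolase gene Ephx1 was at 92.9 ± 1.37 FPKM in KO cells and 8.20 ± 0.300 FPKM in WT cells at day 2 (3.35, adjusted p = 7.19e-16). The thioredoxin gene Txn1, the protein that Txnrd1 reduces, was at 148 ± 2.19 FPKM in KO cells and 503 ± 11.6 FPKM in WT cells at day 0 (-1.76, adjusted p = 1.37e-12). The list thus had large differences in both directions.

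Genes of glutathione synthesis and turnover, 16 tested, were 3 higher and 11 lower in KO at day 2 and 6 higher and 9 lower at day 0, with medians of -0.41 and -0.25. Ggt7, of the gamma-glutamyl transferase family, was at 20.8 ± 0.771 FPKM in KO cells and 0.676 ± 0.310 FPKM in WT cells at day 2 (3.72, adjusted p = 3.65e-11). Chac1, which breaks glutathione down in the cytosol, was at 10.6 ± 0.872 FPKM in KO cells and 64.6 ± 1.71 FPKM in WT cells at day 2 (-2.51, adjusted p = 3.49e-13). Of 4 tested glutathione peroxidases other than Gpx3, 3 were higher and 1 lower in KO at day 2, against 1 higher and 3 lower at day 0, with medians of 0.41 and -0.39. The 1 lower at day 2 was Gpx4, which reduces lipid peroxides in membranes, at 294 ± 5.46 FPKM in KO cells and 537 ± 17.1 FPKM in WT cells (-0.86, adjusted p = 1.03e-10). Gpx1, the main cytosolic form, was higher in KO cells after the cocktail (day 2, 186 ± 10.7 against 103 ± 4.64 FPKM, 0.85, adjusted p = 2.24e-09) and lower before it (day 0, 138 ± 2.56 against 195 ± 5.76 FPKM, -0.50, adjusted p = 3.97e-07).

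Of 16 tested glutathione transferases other than Gsta4, 7 were higher and 9 lower in KO at day 2, and 11 were higher and 5 lower at day 0, with medians of -0.24 and 0.64. Gstm2 was at 110 ± 3.61 FPKM in KO cells and 16.2 ± 1.90 FPKM in WT cells at day 2 (2.69, adjusted p = 4.18e-12), and Gstm1 at 59.4 ± 3.24 FPKM in KO cells and 10.99 ± 0.945 FPKM in WT cells (2.33, adjusted p = 6.82e-12). Genes of this family are near-identical in places, so reads may be split between them. Gsto1, an omega-class member, was at 106 ± 0.485 FPKM in KO cells and 603 ± 6.84 FPKM in WT cells at day 0 (-2.49, adjusted p = 6.17e-15). Of 18 other thioredoxin, peroxiredoxin and sulfoxide reductase genes, 8 were higher and 10 lower in KO at day 2, and 5 were higher and 12 lower at day 0, with medians of -0.56 and -0.38. The mitochondrial peroxiredoxin gene Prdx3 was at 50.4 ± 0.668 FPKM in KO cells and 169 ± 2.26 FPKM in WT cells at day 2 (-1.72, adjusted p = 4.65e-13). Txnip, which binds and inhibits thioredoxin, was at 244 ± 5.28 FPKM in KO cells and 48.2 ± 1.82 FPKM in WT cells at day 0 (2.31, adjusted p = 7.76e-14). Msrb2 was listed at 0 in all KO libraries of both days and averaged 1.45 ± 0.122 FPKM in WT cells at day 2 and 2.82 ± 1.07 FPKM in WT cells at day 0.

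NADPH feeds both the thioredoxin and the glutathione reductases. Of 12 tested genes of NADPH supply, 1 was higher and 11 lower in KO at day 2, and 2 were higher and 9 lower at day 0, with medians of -0.56 and -0.78. Over all tested genes, 40.6% were lower at day 2 and 44.2% at day 0. G6pdx, Pgd, Taldo1, Tkt and Me1 stand on the list of other Nrf2 targets as well. Taldo1, of the pentose phosphate pathway, was at 110 ± 4.10 FPKM in KO cells and 681 ± 10.1 FPKM in WT cells at day 2 (-2.62, adjusted p = 1.53e-14). Nadk2, the mitochondrial NAD kinase gene, was at 160 ± 3.09 FPKM in KO cells and 44.0 ± 0.315 FPKM in WT cells at day 0 (1.84, adjusted p = 2.87e-12). Beside these, the fat cell marker sum was lower in KO cells at day 2, as was each of its genes. The sum was higher in KO cells at day 0, when it was nearly all Lpl. Lpl also made up most of the sum in KO cells at day 2 (273 FPKM on average). The part of this sum in the result was not tested.

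Of 7 tested superoxide dismutase, catalase and NADPH oxidase genes, 3 were higher and 3 lower in KO at each day, with medians of -0.19 and -0.04. Sod3, the secreted dismutase gene, was at 135 ± 2.06 FPKM in KO cells and 11.99 ± 0.384 FPKM in WT cells at day 2 (3.38, adjusted p = 3.16e-15), and at 218 ± 6.70 FPKM in KO cells and 43.8 ± 1.98 FPKM in WT cells at day 0 (2.29, adjusted p = 9.07e-14). Of 12 genes of haem breakdown and iron handling, 3 were higher and 7 lower in KO at day 2, and 5 were higher and 6 lower at day 0, with medians of -0.63 and -0.16. The largest change of this list at day 2, among genes that passed without overlap, was a lower level of Aco1 in KO cells. It was at 74.8 ± 1.79 FPKM in KO cells and 435 ± 3.42 FPKM in WT cells (-2.52, adjusted p = 1.05e-15, limma). The next largest went the other way. Fth1, the ferritin heavy chain gene that stores iron, was at 6360 ± 226 FPKM in KO cells and 1451 ± 37.0 FPKM in WT cells at day 2 (2.13, adjusted p = 3.25e-14). Tfrc, the transferrin receptor gene, was at 6.08 ± 0.469 FPKM in KO cells and 75.8 ± 0.914 FPKM in WT cells at day 0 (-3.44, adjusted p = 6.73e-14). Of 8 selenoprotein synthesis genes, 1 was higher and 7 lower in KO at day 2, and 2 were higher and 4 lower at day 0, with medians of -0.66 and -0.19. Sephs2, which makes selenophosphate for selenoproteins such as Txnrd1, was at 7.80 ± 0.409 FPKM in KO cells and 19.5 ± 0.434 FPKM in WT cells at day 2 (-1.22, adjusted p = 2.62e-10). The 1 gene higher at day 2 was Selenop, a selenium carrier, at 700 ± 14.7 FPKM in KO cells and 246 ± 1.87 FPKM in WT cells (1.51, adjusted p = 7.8e-14).

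**Figure D5:**
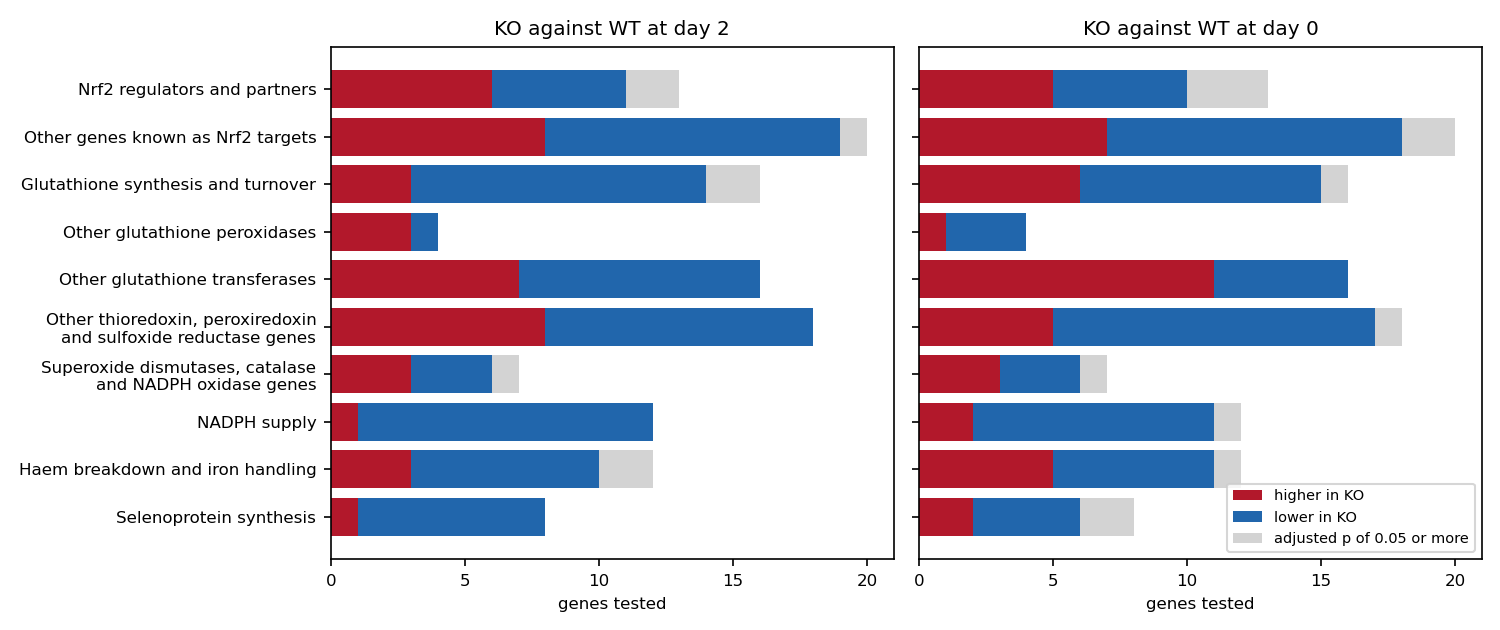
Number of tested genes of each of the 10 lists that were higher in KO, lower in KO or had an adjusted p of 0.05 or more, at day 2 (left) and at day 0 (right). The NADPH supply list has 11 of 12 genes lower in KO at day 2, while the other Nrf2 targets are split 8 higher and 11 lower. These lists share G6pdx, Pgd, Taldo1, Tkt and Me1, all lower in KO at day 2, so their counts are not independent. Over all tested genes, 40.8% were higher and 40.6% lower at day 2.

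The gene with the pattern nearest to each member was sought among 9092 genes averaging 5 FPKM or more, leaving out the members, genes with no symbol and predicted genes or clone names, by the root mean square difference of centred log2 levels over the 12 libraries. For Gclc the nearest was Arhgap24 (0.08), at 28.1 ± 0.171 FPKM in KO day 2 and 14.2 ± 0.668 FPKM in WT day 2, and 6.07 ± 0.370 FPKM in KO day 0 and 15.3 ± 0.279 FPKM in WT day 0. For Nqo1 it was Plpp2 (0.12), at 14.4 ± 1.91 FPKM in KO day 2 and 8.78 ± 0.477 FPKM in WT day 2, and 16.7 ± 0.698 FPKM in KO day 0 and 41.4 ± 0.451 FPKM in WT day 0. Each had the same order of group means as the member it matched, which its choice by likeness makes likely. For the others the nearest genes were Epn1 (Nfe2l2, 0.04), Fam217b (Slc7a11, 0.13), Pole3 (Gclm, 0.07), Washc2 (Txnrd1, 0.06), Rbbp7 (Srxn1, 0.05), Kdelr2 (Gsta4, 0.08) and Mesd (Hmox1, 0.06). For each of these 9, that gene lay nearer than any member did. With 9092 genes to choose from against so few members, this was close to fixed in advance and says little about the members. The genes nearer than the nearest member numbered from 43 for Txnrd1 to 2713 for Nfe2l2, whose nearest member was Gpx3. No nearest gene is given for Gpx3 itself, since at its level the pseudocount sets the pattern. The count for Nfe2l2 rests on its distance to Gpx3 and has the same limit.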

How the data were processed

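The authors deposited FPKM values for 52505 genes in 12 RNA-seq libraries, made with an NEBNext Ultra kit per the labels' protocols. Build mm10, HTSeq 0.6.1, TopHat2 2.0.12 and Bowtie2 2.2.3 are among the entries of the submitters' processing notes, which give no roles. Not given in the sources used here are annotation, strand setting and FPKM formula. The MeRIP samples were not analysed here. FPKM values were whole multiples of a step per gene in 100% of 30916 genes (tolerance 0.001 read), which gave the read numbers used for depth and for voom.

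Columns were grouped by genotype, day and replicate in their names. Log2(FPKM + 1) of the 12961 genes averaging 1 FPKM or more was fitted with limma 3.58.1 in R 4.3.3 (4 group means, variance trend, 8 residual degrees of freedom). Tests were 2-sided, adjusted by Benjamini-Hochberg within each comparison, with a threshold of 0.05, and were checked on simulated data. In the simulation few genes changed and libraries varied independently. It therefore does not cover data in which most genes differ or replicates may be technical. The member genes and lists were chosen with earlier results of these data known. Named were all members, Keap1, Bach1 and, from each list, genes among the 2 with the largest change between genotypes at each day that passed without overlap of the groups. For brevity not all of those are printed. Promoter windows are RefSeq's on GRCm38.p6, of which mm10 is another name, as are gene coordinates. Alternatives were other pseudocounts (0.1, 0.01), filters, scalings and fits, and each library left out in turn.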

Additional observations from a re-analysis of the deposited data

Results flagged for a closer look

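For 7 of the 9 tested member genes the change from day 0 to day 2 differed between KO and WT cells by the interaction test of limma, where 73.8% of all tested genes did. The difference, KO response minus WT response on the log2 scale, was 2.36 for Gclc (2.20 in KO and -0.16 in WT) and 2.06 for Nqo1 (-0.21 in KO and -2.27 in WT). It was 0.86 for Txnrd1 (0.11 in KO and -0.75 in WT) and 0.72 for Srxn1 (-0.08 in KO and -0.80 in WT). It was 0.50 for Gsta4, which fell in both genotypes and by less in KO cells. It was -0.47 for Slc7a11, which fell in both and by more in KO cells, and -0.26 for Nfe2l2, for which the change was 0.03 in KO cells, which did not pass, and 0.29 in WT cells, which did. The summed fat cell markers went up to 329 to 343 FPKM in KO libraries and to 8056 to 8238 FPKM in WT libraries at day 2, and their part in these differences was not tested.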

How the results depend on the processing

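Over all alternatives, 1026 values for the members kept their direction and side of the threshold, 32 lost the call (most under a 2-fold minimum), 7 gained it and 6 changed sign. With a 2-fold minimum the members that passed numbered 2 between genotypes at day 2 and 3 at day 0, 2 with day in KO, 2 with day in WT and 2 for the interaction. Sign changes were small: the change of Nfe2l2 in KO was -0.0117 with TPM scaling and -0.017 without KO day 0 replicate 1 (up to 0.0717 with another library left out), and the interaction of Hmox1 was -0.0346 with TPM scaling, -0.0148 with median-of-ratios scaling and -0.0087 without WT day 2 replicate 3 (up to 0.0516 with another left out). The difference of Gsta4 at day 0 was -0.0116 without KO day 0 replicate 3 (up to 0.0816 with another left out). None of these values had passed the test, and the cause was not tested. With each library left out in turn, 9 members passed at day 2, 7 to 8 at day 0, 8 in KO, 9 in WT and 7 to 8 for the interaction. Adjusted p-values over the alternatives ran from 0.000534 to 0.681 for Nfe2l2 and from 0.0264 to 0.892 for Gsta4 between genotypes at day 0, from 5.75e-05 to 0.0669 for Nfe2l2 at day 2, from 0.000238 to 0.0521 for Gclc in WT, and from 0.00538 to 0.4 for the interaction of Gclm. Quantile normalization moved the median of all genes with day in WT by 0.124 on the log2 scale. With the replicate number as a block, 9 members passed at day 2, 7 at day 0, 8 in KO, 9 in WT and 7 for the interaction, so the block changed no count, and same-numbered libraries deviated together little (r from -0.05 to 0.09 over 18 pairs across genes, with 6 of 12 libraries closest to their own number). Low read numbers limit Gpx3 most, at 1 to 17 reads per library.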
